A study of Capra hircus with 6 samples.

Results

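The major whey protein genes PAEP, LALBA and GLYCAM1 were followed in the lactating mammary gland of goats carrying Low CSN1S1 or High CSN1S1 genotypes. CSN1S1 encodes alpha-s1-casein. The members were taken by gene symbol, which gave 1 probe for each gene (1001864579 for PAEP, Bt00007030 for LALBA and 1001864613 for GLYCAM1), out of 8379 probes on the array. All 3 probes carried 1 gene symbol, and each symbol was found among the goat genes of assembly ARS1.2. The array was a spotted 2-colour array whose probes are annotated with cattle sequences, and each probe was printed as 2 spots. Per the labels, there were 3 Low CSN1S1 goats and 3 High CSN1S1 goats, all on a control diet fed without restriction, and no age or allele beyond the words Low and High is given in the sources used here. Each of 3 independent comparisons set 1 Low goat against 1 High goat on 2 arrays with the dyes swapped, so the 6 arrays make 3 pairs of goats. The pair was the replicate (n = 3). The question is how the CSN1S1 polymorphism affects expression in the gland, here of the proteins that stay in the whey when casein is curdled.

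Whey proteins are made by the luminal secretory epithelium, where prolactin, acting through STAT5, and glucocorticoids drive milk protein genes during lactation. PAEP encodes beta-lactoglobulin, a lipocalin that binds small hydrophobic molecules and is the main whey protein of ruminant milk. LALBA encodes alpha-lactalbumin, a relative of lysozyme that joins the galactosyltransferase B4GALT1 to form lactose synthase, and lactose draws water into milk. GLYCAM1 encodes a mucin-like glycoprotein found in ruminant milk, also called lactophorin, whose mouse counterpart was described as a ligand of L-selectin.

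Signals are given as net intensities, the mean over the pixels of a spot minus the mean of its local background, averaged over the 2 spots. Ratios are log2 values of Low over High after normalization, and values below 0 mean lower in Low. All spots of the 3 members passed without a flag and without a saturation mark on all 6 arrays. On single arrays 74.1% to 82.2% of probe spots carried no flag, and the number of arrays limits the precision. The targeted gene matched its labels: CSN1S1 had a mean ratio of -2.43 ± 0.22 over 3 pairs (SD; adjusted p = 5.13e-04 by limma) and was lower in Low on 6 of 6 arrays, with 3 saturated High spots on 2 of them, both with Low in Cy5. Luminal epithelial markers were measured for 6 of 9 listed genes, with 0 passing the test. Their summed signal was 13.5 to 21.0 times the channel median in Low and 13.3 to 19.7 times in High. The 5 measured myoepithelial markers all lay above 0 (median 0.078) with 0 passing, and their summed signal was 14.5 to 20.9 times the channel median in Low and 12.7 to 19.5 times in High. None of the 4 measured adipocyte, 3 endothelial, 2 fibroblast, 4 leukocyte and 1 red blood cell markers passed, and the ranges of their summed signal overlapped between the genotypes. Of the 6 luminal markers 5 also lay above 0 (median 0.038), as did all 3 endothelial markers (median 0.044). Of the 4 adipocyte markers 3 lay below 0, as did the red blood cell marker, and the fibroblast and leukocyte markers were evenly split. Over all 6378 probes kept, 3245 lay above 0 and 3133 below, and 0.11% passed. Whether cell makeup has a part in the results below was not tested, and in bulk tissue fewer cells of a type and less RNA per cell cannot be told apart.

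PAEP and LALBA gave some of the brightest spots on the array, and GLYCAM1 was dimmer. PAEP ranked between 4 and 51 of 8379 probes in the 6 Low channels (median 12) and between 2 and 26 in the 6 High channels (median 5.5). LALBA ranked between 14 and 50 in Low (median 22.5) and between 9 and 48 in High (median 18). GLYCAM1 ranked between 278 and 907 in Low (median 480.5) and between 291 and 762 in High (median 459). The ranges of PAEP and LALBA overlapped in either genotype, and PAEP was the dimmer of the 2 in the Low Cy5 channels of pairs 2 and 3 and in the High Cy3 channel of pair 3. GLYCAM1 lay below both in all 12 channels. These are ranks of spot signal, and since probes bind with unlike strength they are not ranks of transcript number. CSN1S1, by the same measure, ranked between 39 and 156 in Low and between 1 and 11 in High.

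**Figure D1:**
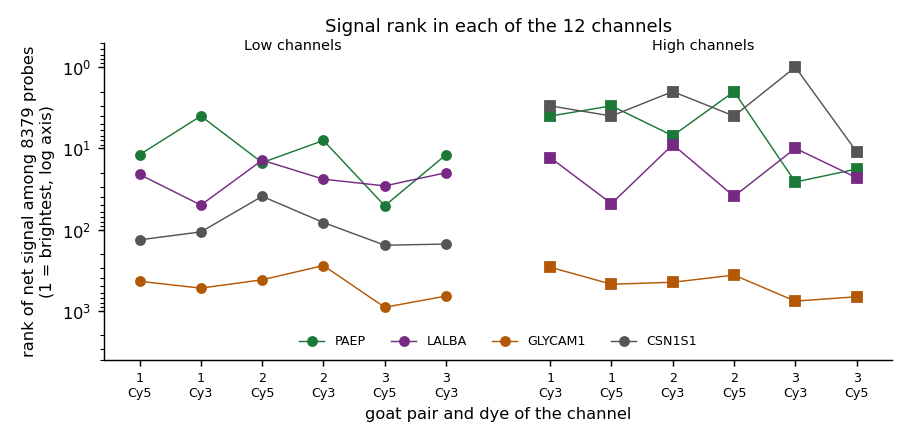
The rank of the net signal among 8379 probes (log axis, 1 is the brightest) is plotted for PAEP, LALBA, GLYCAM1 and CSN1S1 in the 6 Low channels on the left and the 6 High channels on the right, labelled by goat pair and dye. GLYCAM1 lies between 278 and 907 throughout, while CSN1S1 lies between 39 and 156 in Low and between 1 and 11 in High.

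As a share of the net signal of all probes, PAEP took 0.222% to 0.842% in Low channels and 0.349% to 0.931% in High channels. LALBA took 0.222% to 0.555% in Low and 0.224% to 0.618% in High, and GLYCAM1 0.0226% to 0.0644% in Low and 0.0269% to 0.0646% in High. The ranges of the genotypes overlapped for all 3 members. CSN1S1 took 0.11% to 0.286% in Low and 0.556% to 1.05% in High, with no overlap.

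Levels of the whey genes in single goats overlapped between the genotypes over the 2 dyes together. Set against the median net signal of the probes kept in the same channel, PAEP in the Low goats of pairs 1, 2 and 3 stood at 100, 126 and 47.1 times that median in Cy5 and at 178, 189 and 122 times in Cy3. In the High goats of the same pairs PAEP stood at 184, 209 and 97.7 times in Cy5 and at 191, 167 and 77.5 times in Cy3. PAEP was thus dimmer in Low in the Cy5 channels of all 3 pairs, and brighter in Low in the Cy3 channels of pairs 2 and 3. Both goats of pair 3 gave the lowest PAEP levels of their genotype, averaged over the dyes. LALBA stood at 78.2, 127 and 65.8 times the median in Cy5 and at 47.1, 76.0 and 86.5 times in Cy3 in the Low goats. In the High goats LALBA stood at 48.9, 58.6 and 88.0 times in Cy5 and at 125, 138 and 131 times in Cy3. For LALBA the genotypes overlapped in Cy5, while in Cy3 every Low goat lay below every High goat. GLYCAM1 stood at 9.92, 10.6 and 4.77 times in Cy5 and at 8.21, 14.5 and 6.98 times in Cy3 in the Low goats, against 9.13, 11.7 and 6.73 times in Cy5 and 15.5, 9.53 and 5.98 times in Cy3 in the High goats. For GLYCAM1 the genotypes overlapped in either dye. The same goat's Cy5 and Cy3 values come from different arrays, so they hold the array as well as the dye. Within 1 dye, the Low and High values of a pair also come from different arrays, so genotype and array cannot be told apart there. LALBA had 2.09, 2.09 and 1.44 times the mean net signal on the Low in Cy5 arrays, which hold the High Cy3 values, as on the Low in Cy3 arrays. For PAEP that array ratio was 0.79, 0.77 and 0.74.

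**Figure D2:**
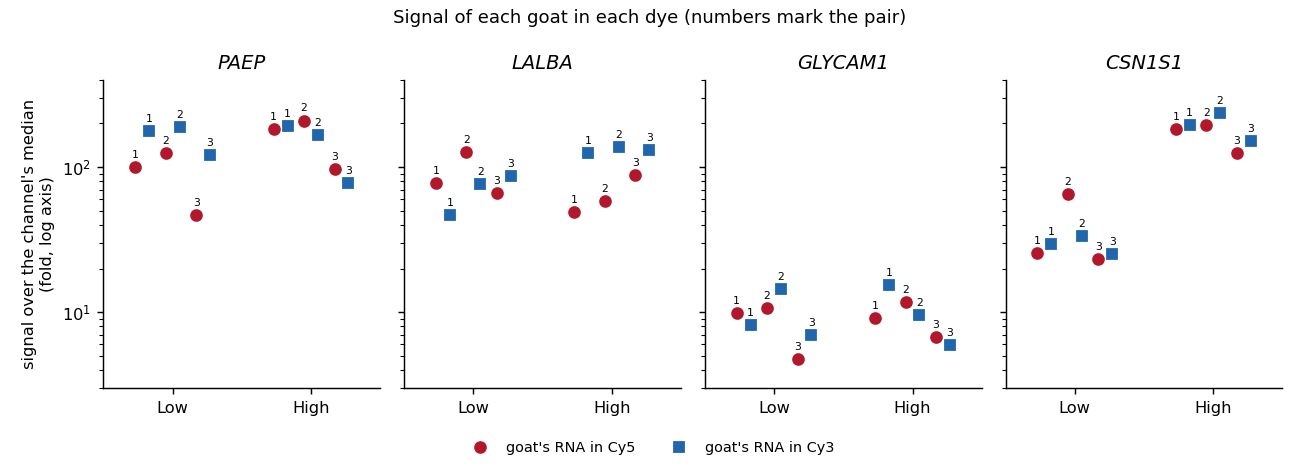
Net signal over the median of the probes kept in that channel (fold, log axis) is plotted for each goat in Cy5 and in Cy3, with Low left of High and the pair number beside each point. The genotypes overlap for PAEP, LALBA and GLYCAM1 over both dyes together, and are apart for CSN1S1, at 23.2 to 65.6 times in Low and 125 to 235 times in High.

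PAEP was lower in Low in all 3 pairs but did not pass the threshold over all probes. On pair 1 the net signals were 23815 in Low and 37308 in High with Low in Cy5, and 37334 in Low and 40160 in High with Low in Cy3. Pair 2 gave 23280 in Low and 30174 in High with Low in Cy5, and 30233 in Low and 39294 in High with Low in Cy3. Pair 3 gave 17466 in Low and 22353 in High with Low in Cy5, and 27044 in Low and 26892 in High with Low in Cy3. So the Low signal was the smaller on 5 arrays and slightly the larger on 1, before normalization. The normalized PAEP ratio was below 0 on 4 of 6 arrays. After normalization the 3 pairs were at -0.35, -0.28 and -0.14, with a mean of -0.26 ± 0.11 (SD, n = 3 pairs), or 83.7% of the High level (95% interval 0.763 to 0.918 of it). The limma adjusted p over all probes was 0.424, at place 47 of 6378 by p, and an exact permutation of the signs of the 3 pair values gave p = 0.25, the smallest p that 3 pairs allow. At an unadjusted p under 0.05, 2.78% of the probes were lower in Low, PAEP among them and LALBA and GLYCAM1 not. Of all probes kept, 13.6% were lower in Low in all 3 pairs, as PAEP was. For comparison with the background, 0.11% of the 6378 probes passed the threshold, all of them lower in Low, and 0 of the 3 whey genes did.

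LALBA and GLYCAM1 moved in different directions from pair to pair, and neither passed. LALBA was at -0.24 in pair 1, 0.11 in pair 2 and -0.46 in pair 3, with a mean of -0.19 ± 0.29 (SD, n = 3 pairs; limma adjusted p = 0.885). Its 95% interval ran from 0.734 to 1.04 of the High level. The net signals of LALBA with Low in Cy5 were 18562, 23593 and 24417 in Low and 24440, 24834 and 37944 in High, in the order of the pairs. With Low in Cy3 they were 9903, 12175 and 19170 in Low and 10654, 10990 and 24232 in High. Before normalization the Low signal was the smaller on 5 of 6 arrays, the exception being pair 2 with Low in Cy3. The normalized LALBA ratio was below 0 on 3 of 6 arrays. GLYCAM1 was at -0.29, 0.20 and -0.11 in pairs 1, 2 and 3, with a mean of -0.067 ± 0.24 (SD, n = 3 pairs; limma adjusted p = 0.922) and a 95% interval from 0.819 to 1.11 of the High level. The net signals of GLYCAM1 with Low in Cy5 were 2354, 1970 and 1771 in Low and 3032, 1716 and 1726 in High. With Low in Cy3 they were 1726, 2315 and 1547 in Low and 1989, 2194 and 1852 in High. Before normalization GLYCAM1 was the brighter in Low on 3 of 6 arrays, both arrays of pair 2 among them. Its normalized ratio was below 0 on 3 of 6 arrays. The exact sign permutation gave p = 0.50 for LALBA and 0.75 for GLYCAM1.

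The spread of LALBA and of GLYCAM1 between pairs was wide against other probes. The SD between pairs was 0.29 for LALBA and 0.24 for GLYCAM1, against a median of 0.079 over all probes kept and 0.056 over the 100 brightest, as a description of these arrays. That of PAEP was 0.11. Within an array the 2 spots of a member differed little: the median gap between them in log2 ratio was 0.057 for PAEP, 0.081 for LALBA and 0.054 for GLYCAM1, against 0.085 over all probes kept. The widest gap was 0.31, for PAEP in pair 1 with Low in Cy5, at -0.90 and -0.59 on its 2 spots.

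The dye orientation changed the sign of the mean normalized ratio of all 3 members. With Low in Cy5, PAEP was at -0.75, -0.50 and -0.64 in pairs 1, 2 and 3, and with Low in Cy3 at 0.046, -0.068 and 0.36. LALBA was at -0.49, -0.20 and -0.92 with Low in Cy5, and at 0.015, 0.42 and 0.0027 with Low in Cy3. GLYCAM1 was at -0.45, 0.11 and -0.24 with Low in Cy5, and at -0.12, 0.28 and 0.018 with Low in Cy3. In all 9 member and pair combinations the array with Low in Cy5 gave the lower ratio. The 2 orientations did not overlap for PAEP or for LALBA, and overlapped for GLYCAM1. Each Low in Cy3 mean was raised by 1 array, at 0.36 for PAEP, 0.42 for LALBA and 0.28 for GLYCAM1. For PAEP that was the array of pair 3, where duplicate spots correlated at 0.551, against 0.741 to 0.800 on the other arrays. The means were -0.63 ± 0.12 and 0.11 ± 0.22 for PAEP, -0.53 ± 0.36 and 0.15 ± 0.24 for LALBA, and -0.19 ± 0.28 and 0.060 ± 0.20 for GLYCAM1 (Low in Cy5 and Low in Cy3 in turn, SD, n = 3 arrays each). When the Low in Cy5 arrays were tested by themselves, PAEP (limma adjusted p = 0.00406) and LALBA (0.0197) passed as lower in Low, in a fit that leaves the dye in the ratio and called 963 probes.

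**Figure D3:**
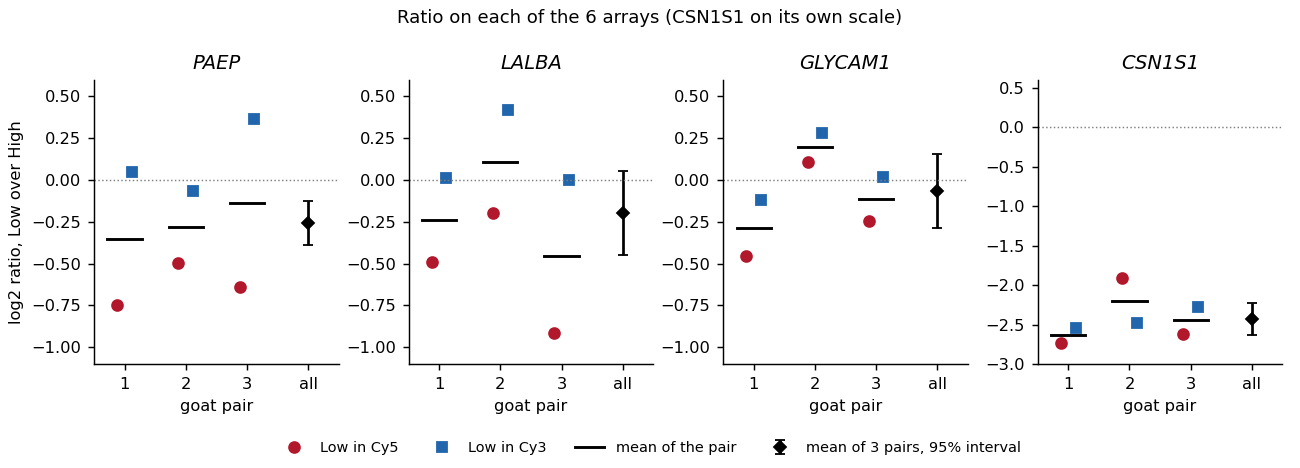
The log2 ratio of Low over High is plotted by goat pair for PAEP, LALBA, GLYCAM1 and, on its own scale, CSN1S1. Red circles are arrays with Low in Cy5, blue squares arrays with Low in Cy3, black lines the means of the pairs, and diamonds the means of 3 pairs with 95% intervals. For the 3 whey genes the red circle lies below the blue square in every pair, and the CSN1S1 values all lie between -2.73 and -1.92.

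The dye effect was measured on normalized ratios, as the difference between the orientations of a pair divided by the number of arrays in it. A negative value means dimmer in Cy5 than in Cy3 relative to each array's normalization curve, not in raw signal. Before that curve was removed, PAEP was at -0.65, -0.37 and -0.36 with Low in Cy5, and at -0.10, -0.38 and 0.013 with Low in Cy3. LALBA was at -0.39, -0.075 and -0.63, and at -0.11, 0.15 and -0.34. GLYCAM1 was at -0.36, 0.19 and 0.021, and at -0.20, 0.085 and -0.25, so higher with Low in Cy5 in pairs 2 and 3. PAEP had a dye effect of -0.40, -0.22 and -0.50 in the 3 pairs, with a mean of -0.37 ± 0.14 (SD, n = 3 pairs; limma adjusted p = 0.00261). LALBA had -0.25, -0.31 and -0.46, with a mean of -0.34 ± 0.11 (adjusted p = 0.00238 in the same limma fit). GLYCAM1 had -0.17, -0.086 and -0.13, with a mean of -0.13 ± 0.041, and did not pass (adjusted p = 0.0621). Such effects were common: 32.3% of 6224 probes passed, 16.7% as dimmer in Cy5 and 15.6% as brighter, so the 2 of 3 members are read against those shares. The dye effects of PAEP and LALBA were larger in size than their ratios of Low over High (-0.26 and -0.19), and larger than the median over all probes kept, 0.104 in size. In size, the dye effect of PAEP lay at percentile 96.4 of all probes kept and that of LALBA at percentile 94.5, while that of GLYCAM1 lay at percentile 58.2. Among the 100 brightest probes, PAEP lay at percentile 92 and LALBA at 88. The casein genes CSN3 and CSN1S2 had dye effects of -0.36 and -0.29, and CSN1S1 of 0.0051.

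PAEP and LALBA lay at the bright end of each array's normalization curve, where few other probes were as bright. Between 3 and 33 of the probes kept were as bright as PAEP or brighter on an array, 10 to 47 as bright as LALBA, and 314 to 827 as bright as GLYCAM1, each count including the probe itself. Before the curve was removed, the mean over pairs was -0.31 for PAEP, -0.23 for LALBA and -0.083 for GLYCAM1. Normalization moved the PAEP ratio of single arrays by between -0.28 and 0.35. It moved the LALBA ratio by between -0.28 and 0.35 too, and that of the dimmer GLYCAM1 by between -0.26 and 0.26. With a curve for each sub-grid the means were -0.20 for PAEP, -0.12 for LALBA and -0.038 for GLYCAM1, and with median centring -0.32, -0.25 and -0.097 in the same order. None passed in these settings. The authors' deposited log2 ratios, averaged in the same way, gave -0.23 for PAEP, -0.17 for LALBA and -0.065 for GLYCAM1.

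The pixel measure bore on PAEP and LALBA. On the brightest PAEP spot, in the High Cy5 channel of pair 1, the median pixel was 62830 units, 95.9% of the scanner's ceiling of 65535, although no PAEP spot was marked saturated. With pixel medians in place of means, PAEP was at -0.51, -0.38 and -0.23 in the 3 pairs, with a mean of -0.37 ± 0.14 (SD, n = 3 pairs; limma adjusted p = 0.164), and lower in Low on 5 of 6 arrays. For LALBA, the pixel median was 0.549 to 1.11 times the pixel mean in single channels, each averaged over the 2 spots. With pixel medians LALBA was at -0.037, 0.36 and -0.35, with a mean of -0.0097 ± 0.36 (SD, n = 3 pairs; limma adjusted p = 0.987), with 2 of 6 arrays lower in Low. GLYCAM1 stayed close to its value, at -0.085 ± 0.24 (adjusted p = 0.884 in the same limma fit).

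**Figure D4:**
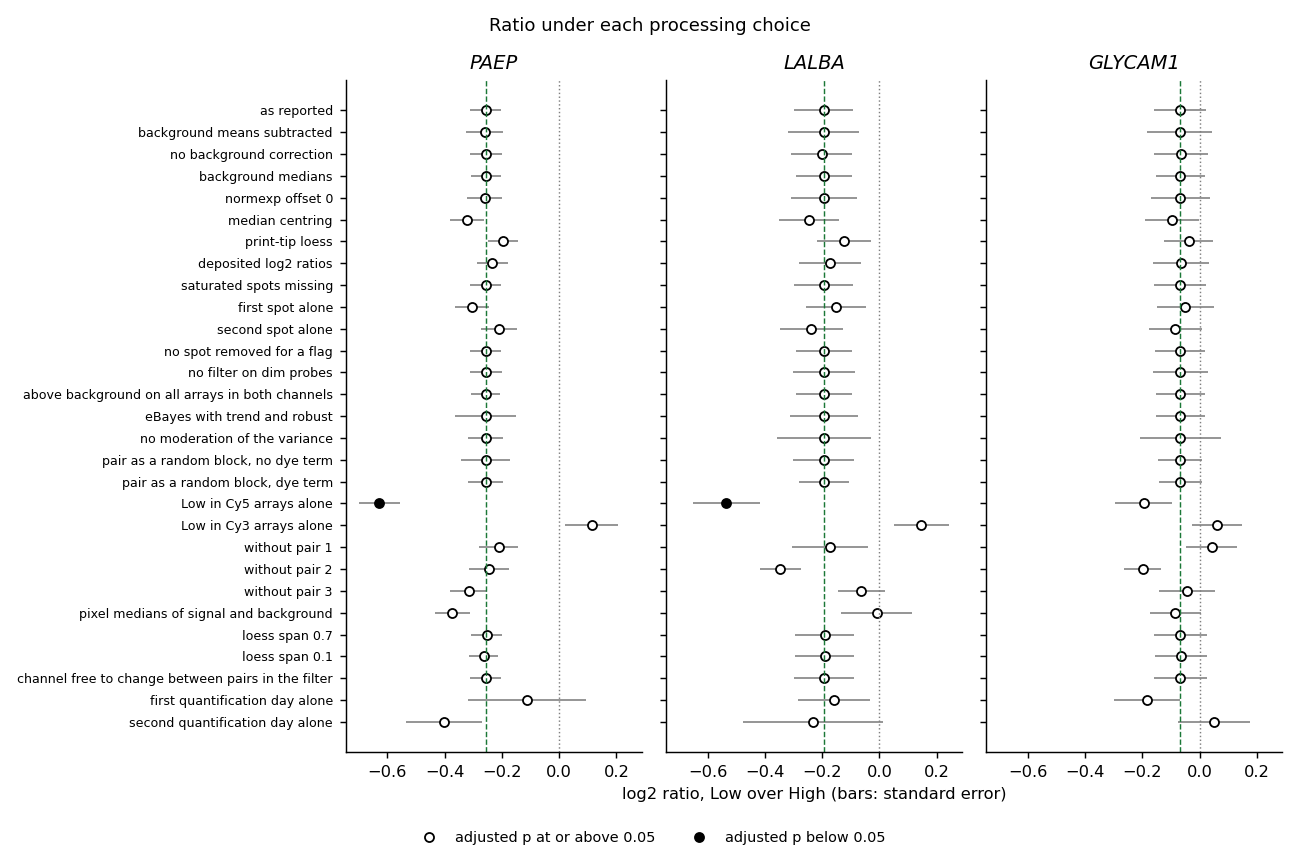
The mean log2 ratio of Low over High is plotted for each member under each processing choice, with bars for the standard error, the reported value as a dashed green line and filled points where the adjusted p was below 0.05. Filled points occur for PAEP (-0.63) and LALBA (-0.53) when Low in Cy5 arrays are used by themselves, and the Low in Cy3 arrays by themselves lie above 0 for all 3 members.

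Leaving out single pairs moved LALBA and GLYCAM1 most. Without pair 2 LALBA was at -0.35 and GLYCAM1 at -0.20, and without pair 3 LALBA was at -0.063. Without pair 1 GLYCAM1 was at 0.042. PAEP stayed between -0.32 and -0.21, and none of the 3 members passed without any 1 pair. The files were quantified from their images on 2 days, per the file headers, and every array held both genotypes. The 3 arrays of the first day (both of pair 1 and the Low in Cy3 array of pair 3) gave -0.11 for PAEP, -0.16 for LALBA and -0.18 for GLYCAM1. The 3 arrays of the second day gave -0.40, -0.23 and 0.050 in the same order. Dye orientation was unbalanced between the days through the 2 arrays of pair 3, while both arrays of pair 1 fell on the first day and both of pair 2 on the second. Within a day the dye effect of PAEP was -0.40 in pair 1 and -0.22 in pair 2.

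The ratios of the 3 members were also set against each other within pairs, as 3 comparisons. PAEP minus LALBA was -0.11, -0.39 and 0.32 (mean -0.063 ± 0.36, SD, n = 3 pairs; 95% interval -0.95 to 0.83). PAEP minus GLYCAM1 was -0.064, -0.48 and -0.026 (mean -0.19 ± 0.25; interval -0.81 to 0.43). LALBA minus GLYCAM1 was 0.048, -0.085 and -0.34 (mean -0.13 ± 0.20; interval -0.62 to 0.37). All 3 intervals hold 0. With 3 pairs the exact sign permutation cannot go below 0.25, and it gave p of 0.75, 0.25 and 0.50 in that order and 0.75 for each after Benjamini-Hochberg adjustment. The intervals are wide, so the members are shown neither to differ nor to move alike.

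Among the milk protein genes, CSN1S1 alone passed the test. Of 12 listed genes 10 were measured: 1 fell (CSN1S1), 0 rose and 9 did not pass, with a median of -0.043 against 0.0014 over all probes kept. In pair 2, 7 of the 10 were higher in Low (median 0.16), among them LALBA and GLYCAM1 but not PAEP. In pair 1, 3 were higher in Low (median -0.14), and in pair 3, 1 was (median -0.13). Over all probes kept, 51.0%, 49.2% and 51.6% were higher in Low in pairs 1, 2 and 3. CSN1S2, which encodes alpha-s2-casein, was at -0.22, 0.12 and -0.10 in the 3 pairs, and CSN3, of kappa-casein, at -0.054, 0.70 and -0.072. SPP1, of the secreted phosphoprotein osteopontin, was at 0.14, 1.41 and -0.97, and the iron-binding LTF at 1.07, 0.29 and -0.30. LPO, of lactoperoxidase, was at -0.058, 0.33 and 0.12, and PIGR, which carries antibodies across the epithelium, at 0.063, -0.028 and -0.091. CSN1S1 was at -2.63, -2.20 and -2.44.

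**Figure D5:**
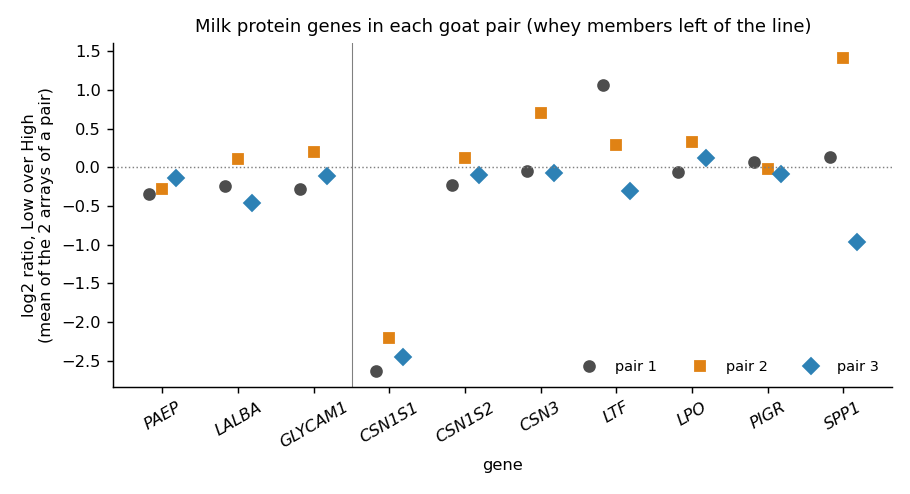
The log2 ratio of Low over High is plotted for the 10 measured milk protein genes, with PAEP, LALBA and GLYCAM1 left of the line, as the mean of the 2 arrays of each goat pair. PAEP lies between -0.35 and -0.14, LALBA and GLYCAM1 are above 0 in pair 2 alone, and SPP1 and CSN3 reach 1.41 and 0.70 in pair 2.

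Genes that act with the members did not pass either, but only 0.11% of the 6378 probes kept did. At that share, 0 calls in lists this short say little about them. Over all probes kept, 3133 lay below 0 and 3245 above. Of the lactose synthesis genes, 6 of 14 were measured, with 0 passing, 5 above 0 and a median of 0.031. GALT, of galactose metabolism, was at -0.088 ± 0.059, the hexokinase HK1 at 0.031 ± 0.037 and the triosephosphate isomerase TPI1 at 0.031 ± 0.039 (SD, n = 3 pairs each). B4GALT1, the partner of alpha-lactalbumin, was at 0.044 ± 0.068 and is named after its value was seen. Of the regulators of milk protein genes, 11 of 24 were measured, with 0 passing, 8 below 0 and a median of -0.032. The cytokine signalling inhibitor SOCS3 was at 0.0080 ± 0.050, the transcription factor STAT5B at -0.067 ± 0.042 and the growth factor receptor IGF1R at -0.054 ± 0.14. Of the lipocalins and related fatty acid binding proteins, 4 of 12 were measured, with 0 passing and a median of 0.0034. FABP3, a fatty acid binding protein, was at -0.011 ± 0.083, C8G, a lipocalin of the complement system, at 0.018 ± 0.10 and APOD, a lipocalin of lipoproteins, at 0.078 ± 0.086. Of the mucins and selectin partners, 3 of 10 were measured, with 0 passing. CD34, a sialomucin of endothelial and blood stem cells, was at -0.010 ± 0.013, MUC15 at -0.090 ± 0.15 and MUC1, of the milk fat globule membrane, at 0.11 ± 0.15. Of the lysozyme family only LALBA was measured.

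The probes whose 6 array ratios lay nearest to those of each member were found by Euclidean distance among 5717 probes with a ratio on all 6 arrays. For PAEP they were ZMYND15 (0.377), LGI1 (0.381) and LEP (0.396), the gene of leptin. The LEP probe found here had a ratio of -0.286 and a dye effect of -0.278. Another LEP probe was at 0.0055, with a dye effect of -0.080. For LALBA they were GAT (0.352), LPAR5 (0.386), a receptor of lysophosphatidic acid, and DLL4 (0.417), a Notch ligand. For GLYCAM1 they were TDRD3 (0.158), EGFL8 (0.177) and CDCA3 (0.181). The 6 ratios hold the dye as well as the goats, and the 9 probes were chosen on them, so their dye effects (-0.42 to -0.11) follow from that choice.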

How the data were processed

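Each of 6 arrays gave 2 scanner files, 1 per channel, for lactating mammary gland of 3 Low and 3 High goats. The authors read spot and local background intensity with ImaGene 6.0, per the labels. The deposited background SD is a signal in the same pixel units. The deposited series values are log2 ratios of Low over High, made by software and a centring that the sources used here do not name. They were matched to spots by row number, which gave r between 0.989 and 0.998 across bright spots, against 0.0489 to 0.175 when moved by 1 sub-grid. The column medians were 0.0205, -0.0135, 0.0186, -0.0076, 0.0038 and -0.0094. In 12 of 12 files the header named the dye that the labels give to that genotype.

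Background means were corrected by normexp (offset 50) and ratios normalized by global loess (span 0.3) with limma 3.58.1 under R 4.3.3, and statmod 1.5.0 served the block fits. Control and flagged spots had weight 0. Manual and empty flags made a spot missing, and saturated spots were kept. The labels' dyes gave each ratio its direction, Low over High, and ratios were averaged over duplicate spots and over the 2 arrays of a pair. Probes entered the test when, in 1 of the 2 genotypes' channels, an unflagged spot exceeded the background mean plus 2 background SDs on at least 1 array of each pair. This left 6378 probes. Low over High, and the dye effect, were tested against 0 by the two-sided test of lmFit and eBayes. Adjusted p-values are Benjamini-Hochberg over all probes, with a threshold of 0.05. Dye effects need both arrays of a pair, which 6224 probes had in at least 2 pairs. The 95% intervals of single genes come from this fit, and those of differences between members from the 3 pair values.

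The steps were tested on simulated data, where the false rate of the Low over High test was 7.61%. That rate belongs to the simulated data and was not measured on these arrays. The members and gene lists were chosen with earlier results of these data known. Named genes are the 3 members, CSN1S1, all measured milk proteins and the 3 brightest measured genes of each other list. Added to these are the 3 probes with 1 symbol nearest to each member. A gene with several probes is given by its brightest, and probes with several symbols were not named. Of 8379 probes 6840 had 1 symbol, 93 several and 1446 none, from an old platform annotation. Binding of cattle probes to goat transcripts was not measured. The goat gene table of ARS1.2 served for names only, and no coordinates are printed. Alternatives covered background, normalization, flags, spots, filter, variance, dye, pairs and, chosen after seeing the data, pixel medians, loess span, the filter and the quantification day.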

Additional observations from a re-analysis of the deposited data

Results flagged for a closer look

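In 28 sets of 6 array values (7 measures for each of PAEP, LALBA, GLYCAM1 and CSN1S1), 4 had 1 array well apart from the other 5. Chance gives about 1 in 20 for independent values, but these sets hold 2 arrays per goat and restate the same signals, so the counts cannot be set against that rate. PAEP ranked 51 in the Low Cy5 channel of pair 3, against 4 to 15 in the other Low channels. GLYCAM1 had a net signal of 3032 in the High Cy3 channel of pair 1, against 1716 to 2194 in the other High channels. CSN1S1 ranked 11 in the High Cy5 channel of pair 3, against 1 to 4 in the others. CSN1S1 stood at 65.6 times the channel median in the Low Cy5 channel of pair 2, against 23.2 to 33.7 times in the other Low channels.

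Outside the probes, 2 blank control spots beside PAEP gave signal above background on 5 of 6 arrays. The one directly beside PAEP had a mean net signal of 131 units and the one a place further 276 units, which are 0.442% and 0.931% of the PAEP signal. The median of 2442 control spots was 6.82 units. The 3 blank spots beside GLYCAM1 lay between 7.21 and 15.1 units and exceeded background on 0 of 6 arrays.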

How the results depend on the processing

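No member passed in any of 28 alternatives except PAEP (-0.63) and LALBA (-0.53) when only Low in Cy5 arrays were used. On the 3 arrays with Low in Cy3 alone all 3 turned positive: PAEP 0.11, LALBA 0.15 and GLYCAM1 0.060. GLYCAM1 also turned on the second quantification day (0.050), and ranged from -0.20 to 0.042 without 1 pair; PAEP ranged from -0.32 to -0.21 and LALBA from -0.35 to -0.063. The 2 orientations hold opposite dye effects by construction; for the other changes the cause was not tested. The dye effects of PAEP and LALBA passed, and that of GLYCAM1 did not, in all 8 alternatives run on them. Mean signal ranks moved by less than their spread in 3 of 3 alternatives.

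The count of probes past the threshold, 7, was 3 with background subtracted, 4 without background correction, 2 with normexp offset 0, 2 on the first or on the second spot alone, 2 with no filter, 1 with trended, robust variance and 0 without moderation. Keeping the pair as a random replicate block on single arrays gave 32, with or without a dye term, and changed no member's call. The correlation fitted within blocks was -0.503 without and 0.0161 with the dye term. Those fits therefore did not treat the 2 arrays of a pair as 1 replicate. The count was 963 with Low in Cy5 and 442 with Low in Cy3 alone, 1 on either quantification day, and 2 to 32 without 1 pair. Few other probes were as bright as those of PAEP and LALBA, and whether this affects their ratios was not tested. With loess spans of 0.1 and 0.7, PAEP was at -0.264 and -0.253, and LALBA at -0.191 with either.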
